A study of Mus musculus with 6 samples.

Results

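Omp, Ssu2 and Tm4sf4 were examined as 3 genes chosen because their signals fell steeply in mouse adrenal glands labelled as Gata6 conditional knockouts (cKO). Their members are all array probes whose deposited symbol is Omp, D630042P16Rik (an older name of Ssu2) or Tm4sf4, which gave 2, 1 and 2 probes out of 45281. The series holds 6 samples measured on Illumina bead arrays, each of whole adrenal from virgin females, all adult B6.FVB mice. Of these, 3 came from normal mice (control) and 3 from mice with a conditional knockout of Gata6 in the adrenal, and no treatment is given for either group. Gata6 encodes a GATA-family transcription factor, which binds DNA through zinc fingers. The labels do not name the promoter that drove the deletion, the deleted exons, or whether a sample was 1 animal or a pool, so p-values here reflect the spread between samples alone, and that spread may be technical. The study asked which adrenal transcripts differ between these groups. Because the genes were chosen by that same contrast, their falls are described here without a test.

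The 3 genes encode unrelated proteins. Omp encodes olfactory marker protein, an abundant cytoplasmic protein of mature olfactory sensory neurons, where it binds cyclic AMP and shapes the time course of the odorant response. It has also been found in tissues outside the nose. Tm4sf4 encodes a membrane glycoprotein of the L6 family, known from liver, intestine and the developing pancreas, where family members affect cell growth and differentiation. Ssu2 is the mouse homologue of a gene named in the worm, and its human counterpart has been linked to an inherited defect of dentin; its role in the adrenal is not established. The mouse adrenal cortex of virgin females holds an inner X-zone, a remnant of the fetal cortex that regresses in pregnancy, and the cortex outside it makes corticosteroids and aldosterone.

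In RefSeq (GRCm38.p6) Omp lies on chromosome 7, Ssu2 on chromosome 6 and Tm4sf4 on chromosome 3. Promoter sequences, which run from 250 bases before to 50 bases after the annotated start, were matched for 2 of the 3 genes, Ssu2 and Tm4sf4. They are shown because both genes were lower on arrays labelled as a knockout of a DNA-binding factor. Capitals mark the only match found to the motifs searched.
Ssu2, chr6:112387974-112388273, minus strand: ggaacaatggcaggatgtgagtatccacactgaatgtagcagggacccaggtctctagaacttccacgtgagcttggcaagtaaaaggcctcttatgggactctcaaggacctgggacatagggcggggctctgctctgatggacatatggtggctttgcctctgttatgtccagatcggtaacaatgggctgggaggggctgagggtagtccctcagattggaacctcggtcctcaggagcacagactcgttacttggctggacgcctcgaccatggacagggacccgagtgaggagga
Tm4sf4, chr3:57425160-57425459, plus strand: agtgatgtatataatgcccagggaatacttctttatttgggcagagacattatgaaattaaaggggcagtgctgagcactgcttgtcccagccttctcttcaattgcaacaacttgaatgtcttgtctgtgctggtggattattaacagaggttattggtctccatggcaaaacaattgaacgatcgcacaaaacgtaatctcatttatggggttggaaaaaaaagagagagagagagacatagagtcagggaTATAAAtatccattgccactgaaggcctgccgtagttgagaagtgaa

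The motifs were searched on both strands of these windows, and no motif overlaps another. For GATA factors the words were AGATAA with its variant AGATAG, and TGATAA with its variant TGATAG, which 29.8% of all 32851 RefSeq promoter windows hold. Neither window holds such a word. The word AAGGTCA, bound by the steroidogenic factor Nr5a1 and other nuclear receptors, is in 4.72% of all windows and in neither of these. TGACG, which is part of the cyclic AMP response element, is in 20.8% of all windows and in neither. The TATA word TATAAA is in 13.6% of all windows and was found in the Tm4sf4 window, at bases 254 to 259, just downstream of the annotated start. The windows differ in base composition, with 55.7% G and C in Ssu2 and 41.3% in Tm4sf4. These matches describe letters in short windows only.

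The arrays detected between 18314 and 19459 probes each, where detected means a deposited detection p-value under 0.05. Of 13327 genes bright enough to be tested, 930, or 6.98%, differed between the groups (limma, adjusted p under 0.05), with 578 rising and 352 falling. That count was 601 or 439 when control replicate 1 or 2 was left out, and 502 or 398 when cKO replicate 2 or 3 was left out. Arrays of 1 label correlated at a Pearson r of at least 0.986 over tested probes and arrays of different labels at no more than 0.978. The 1 probe of Gata6 itself averaged 11.72 ± 0.07 (SD, n = 3, log2) in controls and 12.12 ± 0.17 in the samples labelled cKO, which is higher, not lower. The difference of 0.40 (SE 0.10) did not pass (limma, adjusted p = 0.0545), but it passed with a robust variance (0.0472), with array weights (0.0330) and without cKO replicate 1 (0.0448). The position of this probe relative to the deleted part was not available from the labels, so it may check nothing, and directions are therefore stated for the arrays labelled cKO.

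Omp was bright on every control array and dim on every array labelled cKO. It came nearest to background on cKO replicate 2, at 5.54 log2 units against lowest detected signals of 5.11 to 5.25. Its brighter probe, ILMN_2417234, gave background-subtracted signals of 905, 1387 and 933 on control replicates 1, 2 and 3. The arrays labelled cKO gave 63.9, 32.8 and 54.0 in the same order of replicate number. The groups were far apart, the lowest control signal being 14.2-fold the highest signal on an array labelled cKO. The probe was still detected on all 6 arrays, with a detection p-value of 0 on 5 of them and of 0.0118 on cKO replicate 2, the lowest array. After background correction and quantile normalization the control arrays read 9.89, 10.48 and 9.78 log2 units and the arrays labelled cKO 6.34, 5.54 and 5.97. The group means were 10.05 ± 0.38 (SD, n = 3) and 5.95 ± 0.40, a difference of -4.10 (SE 0.24 from the model). Control replicate 2 was the highest array and cKO replicate 2 the lowest.

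The other Omp probe, ILMN_2760399, gave no usable signal. It read -4.95, -0.148 and -9.23 on control replicates 1, 2 and 3, and -3.09, -6.28 and -8.83 on the arrays labelled cKO, where a value below 0 is a signal under the subtracted background. Its detection p-values lay between 0.463 and 0.812, so it was detected on 0 of 6 arrays. It was not tested and says nothing on the direction, and the account of Omp therefore rests on 1 probe.

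Ssu2 was likewise bright on the control arrays and at or near background on the arrays labelled cKO. Its 1 probe, ILMN_2894604, gave signals of 704, 1106 and 721 on control replicates 1, 2 and 3 and of 44.8, 10.7 and 23.1 on cKO replicates 1, 2 and 3. The lowest control signal was 15.7-fold the highest on an array labelled cKO. The detection p-values were 0 on the control arrays and 0.00427, 0.135 and 0.0203 on cKO replicates 1, 2 and 3, so the probe was not detected on cKO replicate 2. In normalized log2 units the control arrays read 9.55, 10.18 and 9.42, and the arrays labelled cKO 5.93, 4.89 and 5.23. The lowest signal called detected on an array lay between 5.11 and 5.25 log2 units, so 2 of the 3 cKO values sat at the edge of the background. The group means were 9.72 ± 0.40 (SD, n = 3) and 5.35 ± 0.53, a difference of -4.37 (SE 0.29), whose size rests partly on background signal.

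Tm4sf4 was lower by less than the others, and evenly so. Its brighter probe, ILMN_2901387, gave signals of 286, 294 and 380 on control replicates 1, 2 and 3 and of 59.1, 58.0 and 77.5 on cKO replicates 1, 2 and 3. It was detected on all 6 arrays, with a detection p-value of 0.00107 on cKO replicate 1 and of 0 elsewhere. The lowest control signal was 3.69-fold the highest on an array labelled cKO. In normalized log2 units the control arrays read 8.32, 8.39 and 8.54 and the arrays labelled cKO 6.24, 6.13 and 6.38. The means were 8.42 ± 0.11 (SD, n = 3) and 6.25 ± 0.12, a difference of -2.17 (SE 0.14). All 6 values lay above the lowest detected signals, whereas Ssu2 was not detected on cKO replicate 2. With a larger offset in the background correction, 50 in place of 16, the difference still shrank to -1.77, and that of Ssu2 to -3.53.

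A second Tm4sf4 probe, ILMN_2479370, was dim throughout and read the same direction. It gave 31.4, 38.4 and 24.4 on control replicates 1, 2 and 3, with detection p-values of 0.0128, 0.00641 and 0.0331. On the arrays labelled cKO it gave 10.4, 19.6 and 14.3, with detection p-values of 0.139, 0.0406 and 0.0972, so only cKO replicate 2 was detected. The lowest control signal was only 1.24-fold the highest of the others. On the normalized scale the difference was -0.61, much smaller than that of the brighter probe, and both group means, 5.62 ± 0.27 (SD, n = 3) and 5.01 ± 0.13, lay at or near the lowest detected signals. This second probe was kept for the test through its 3 detected control arrays, and its values lie near background, so it adds little. The account of Tm4sf4 thus rests mainly on its brighter probe.

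**Figure D1:**
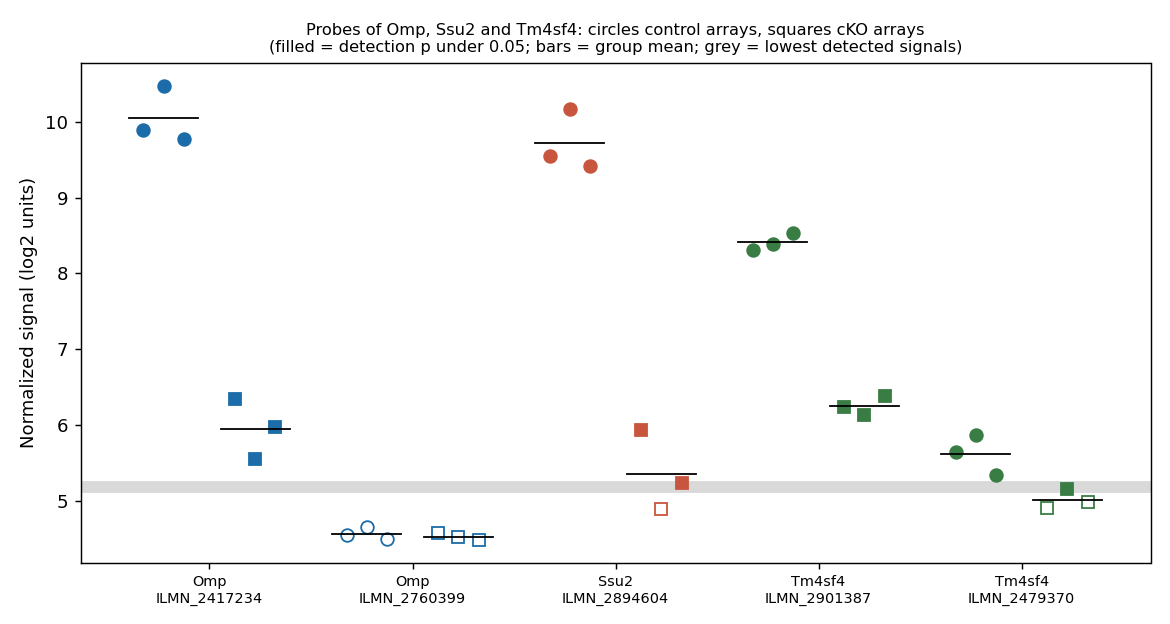
Normalized signal in log2 units (y axis) of each of the 5 probes of Omp, Ssu2 and Tm4sf4 (x axis), with control arrays as circles and arrays labelled cKO as squares, 3 each; filled symbols have a detection p-value under 0.05, bars are group means and the grey band spans the lowest detected signals, 5.11 to 5.25. The brighter Omp probe, the Ssu2 probe and the brighter Tm4sf4 probe read far lower on the arrays labelled cKO. The second Tm4sf4 probe lies at or near the band, and the second Omp probe lies below the band on all 6 arrays.

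Among the 13327 tested genes ordered from the steepest fall, each represented by its brightest tested probe, Ssu2 stood at rank 2, Omp at rank 4 and Tm4sf4 at rank 19. The choice of the genes fixed these places, which are given as a description. Over the alternatives that gave a value, Ssu2 ranged from rank 2 to 4 and Omp from 3 to 6. Tm4sf4 ranged from 17 to 29, leaving aside the filter of a detection p-value under 0.01 on all 6 arrays. That filter kept 10328 genes, without Ssu2 or Omp among them, and Tm4sf4 stood at rank 8 there. The X-zone kinase gene Pik3c2g, at -5.60, stood above Ssu2, and the X-zone gene Akr1c18, at -4.24, stood between Ssu2 and Omp. With an offset of 50 Akr1c18, at -4.16, was steeper than both Ssu2 and Omp (-3.53 and -3.51), as it also was without cKO replicate 1 (-5.40 against -4.66 and -4.30). Without cKO replicate 2, at -3.27, it was less steep than both (-4.14 and -3.90). The osteopontin gene Spp1 followed Omp at -3.63, after a transcript with a clone name at -3.90. Tm4sf4 stood in a denser stretch, between Xrra1 at -2.22 and the metalloproteinase inhibitor gene Timp4 at -2.12.

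**Figure D2:**
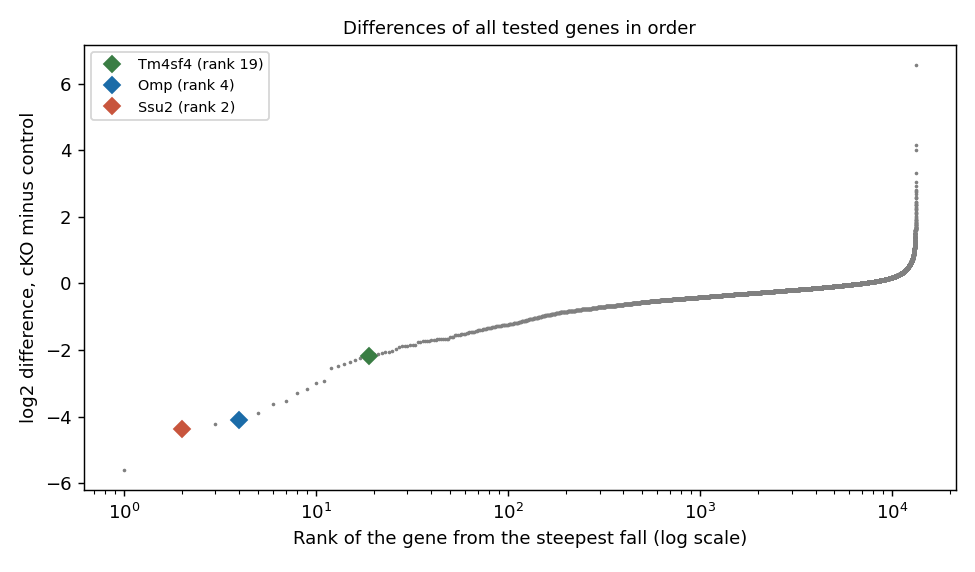
Difference in log2 units, arrays labelled cKO minus control (y axis), of all 13327 tested genes against their rank from the steepest fall (x axis, log scale), with Ssu2, Omp and Tm4sf4 as diamonds. Ssu2 at rank 2 and Omp at rank 4 lie where single genes are far apart, and Tm4sf4 at rank 19 lies where the curve begins to flatten.

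Omp and Ssu2 followed each other from array to array, while Tm4sf4 varied little within each group. With each gene set against its own control mean, control replicates 1, 2 and 3 read -0.16, 0.43 and -0.27 for Omp and -0.17, 0.46 and -0.29 for Ssu2. On cKO replicates 1, 2 and 3 they read -3.71, -4.51 and -4.08 for Omp and -3.79, -4.83 and -4.48 for Ssu2. In both genes, control replicate 2 was the highest control and cKO replicate 1 the highest array labelled cKO. Tm4sf4 read -0.10, -0.02 and 0.12 on the controls and -2.18, -2.28 and -2.04 on the arrays labelled cKO, so replicate 3 was the highest in each group. The order of control replicates 1 and 3 in Omp and Ssu2 depends on the normalization, since their unnormalized signals were slightly higher on replicate 3.

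The choice of the genes used the group means but not the deviations of single arrays from them. With each group's mean removed, the Pearson r over the 6 arrays was 0.979 between Omp and Ssu2, 0.09 between Omp and Tm4sf4 and 0.00 between Ssu2 and Tm4sf4. Of 13326 other genes, 21 correlated more closely with the deviations of Omp than Ssu2 did. These are descriptions over few arrays, the genes on each array were read from the same RNA preparation, and values near background are compressed. The deviations of Tm4sf4 were at most 0.13 log2 units, so its r values cannot show whether it followed Omp and Ssu2. The spread of Omp and Ssu2 was wide for this data set. Their SDs of 0.38 and 0.40 among controls compare with a median of 0.15 over all tested genes, whereas Tm4sf4, at 0.11, lay below that median.

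The X-zone genes shared the order of the arrays labelled cKO with Omp and Ssu2, with a wider range. Pik3c2g read -3.94, -7.17 and -5.71 on cKO replicates 1, 2 and 3 against its control mean, and Akr1c18, which inactivates progesterone, read -1.91, -6.16 and -4.64. In each of these 4 genes cKO replicate 1 kept the most signal and replicate 2 the least. That order is not particular to them, as it was also that of Fetub, Smpdl3b, Spp1, Hamp and the macrophage gene Cd68, of 95 of the 352 genes that fell and of 17.9% of all tested genes. Tm4sf4 was also lowest on cKO replicate 2 but varied there by only 0.25 log2 units, from 6.13 to 6.38. In whole glands, fewer cells of a type and less RNA per cell cannot be told apart. The part of the X-zone in the falls of Omp, Ssu2 and Tm4sf4 was not tested.

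**Figure D3:**
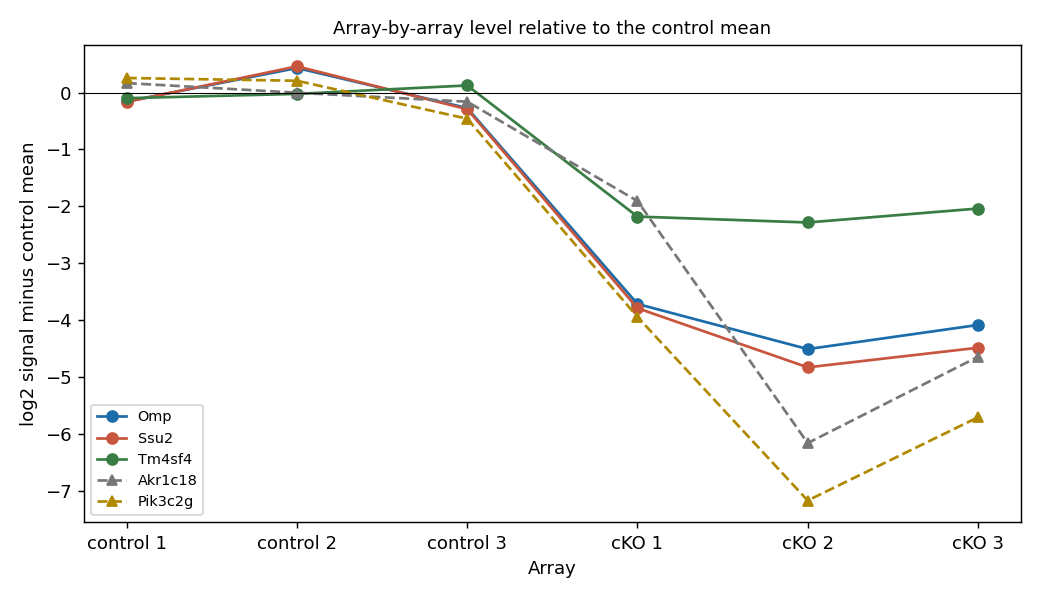
Normalized log2 signal minus the control mean of the same gene (y axis) on each of the 6 arrays (x axis) for Omp, Ssu2 and Tm4sf4 (solid lines) and the X-zone genes Akr1c18 and Pik3c2g (dashed lines). Omp and Ssu2 nearly overlie each other, Tm4sf4 stays between -2.28 and -2.04 on the arrays labelled cKO, and Akr1c18 and Pik3c2g spread most, down to -6.16 and -7.17 on cKO replicate 2.

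Genes with the most similar profiles were found by the root mean square (RMS) difference in log2 units over the 6 arrays, each profile centred on its own mean, among 10933 other genes with a current symbol. The gene nearest to Omp was Ssu2 and the gene nearest to Ssu2 was Omp, at an RMS difference of 0.17 and a Pearson r of 0.999. For Omp the next were Fetub, which encodes the protease inhibitor fetuin-B (0.56), the lipid phosphodiesterase gene Smpdl3b (0.83), Spp1 (0.89) and the hepcidin gene Hamp (0.92). For Ssu2 they were Fetub (0.69), Spp1 (0.87), Pik3c2g (0.91) and Hamp (0.92). Both measures are set mostly by the size of each gene's group difference, which chose Omp and Ssu2, so their nearness on this scale is a description and adds nothing to the deviations within groups given above.

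The genes nearest to Tm4sf4 were those whose group difference, between -2.22 and -1.76, was close to its own -2.17. They were Ly6d, which encodes a membrane-anchored protein of the Ly6 family (0.16), Rgl1, an exchange factor for Ral GTPases (0.18), Xrra1 (0.24), the actin-binding protein gene Aif1l (0.27) and the oxytocin receptor gene Oxtr (0.33). Ly6d read 13.06, 13.10 and 13.36 on control replicates 1, 2 and 3, and 11.24, 11.08 and 10.89 on cKO replicates 1, 2 and 3. Rgl1 lay at or below 8.17 on the controls and read 6.17, 6.23 and 6.20 on cKO replicates 1, 2 and 3. Tm4sf4 lay 1.02 from Omp and 1.17 from Ssu2, distances that mostly restate its smaller difference. Its Pearson r over the 6 arrays was 0.986 with Omp and 0.981 with Ssu2, values set mostly by the group differences.

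The genes next to Omp, Ssu2 and Tm4sf4 on their chromosomes were tested to see whether the falls extended along the chromosome. The list took the 5 protein-coding genes on each side of each gene in RefSeq and the 1 that overlaps Omp. Of these 31 genes, 28 had a probe and 20 were bright enough to be tested. Among them 1 rose and 1 fell (limma, adjusted p under 0.05), both near Ssu2, with a median difference of 0.06 against -0.01 over all genes tested. These 2 of 20 compare with 6.98% of all genes, which is near the background for so short a list.

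Near Omp, 0 of 6 tested neighbours passed (limma), and 1 had an unadjusted p under 0.05, as 23.7% of all tested genes did. Capn5, a calpain protease gene whose span overlaps Omp, read 8.36, 8.37 and 8.41 on control replicates 1, 2 and 3 and 8.55, 8.64 and 8.75 on cKO replicates 1, 2 and 3. Its mean was slightly higher on the arrays labelled cKO, by 0.27 (SE 0.11), without passing (limma, adjusted p = 0.208). Myo7a, the unconventional myosin gene next to Omp on the side of lower coordinates, differed by -0.33 (SE 0.23, adjusted p = 0.430), and B3gnt6, on the other side, was detected on 0 arrays. None of the 6 tested genes around Omp had a difference of the size seen at Omp.

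Near Ssu2, 2 of 8 tested neighbours passed (limma), where 6.98% of all tested genes did. An unadjusted p under 0.05 was found for 4 of the 8, where 23.7% of all tested genes had one. Oxtr, the oxytocin receptor gene, lies beyond Cav3 on the side of higher coordinates, and it read 7.25, 7.73 and 7.21 on control replicates 1, 2 and 3. It read 5.30, 5.81 and 5.81 on cKO replicates 1, 2 and 3. It fell by 1.76 on the log2 scale (SE 0.21; limma, adjusted p = 0.00337), where 2.64% of all tested genes fell. A further Oxtr probe was detected on 0 arrays, and the probe that fell averaged 5.64 on the arrays labelled cKO, not far above the lowest detected signals. Cav3, the muscle caveolin gene between Ssu2 and Oxtr, was detected on 0 arrays. Srgap3 rose by 0.72 (SE 0.13; limma, adjusted p = 0.0151), where 4.34% of all genes rose, but leaving out cKO replicate 3 ended that call (0.66, adjusted p = 0.0719). Lmcd1, directly on the other side of Ssu2, differed by 0.62 (SE 0.32, adjusted p = 0.294), and its 3 probes read between 0.54 and 0.62.

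Near Tm4sf4, 0 of 6 tested neighbours passed (limma), and 0 had an unadjusted p under 0.05. Wwtr1, the adjoining gene for a coactivator of the Hippo pathway, differed by 0.03 (SE 0.17, adjusted p = 0.933), and its other probes read -0.12 and -0.11. The adjoining gene on the other side is Tm4sf1, a family member, and its 1 probe was detected on 0 arrays. The differences of the 6 tested genes lay between -0.36 and 0.25.

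**Figure D4:**
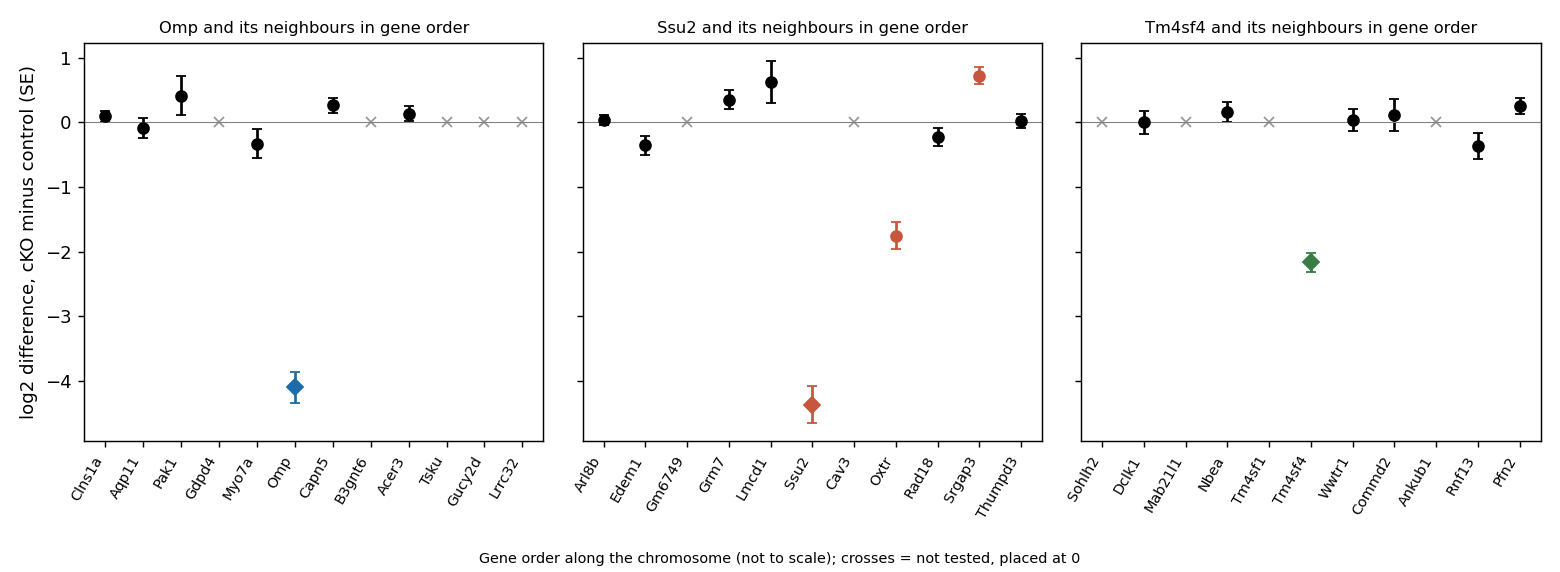
Difference in log2 units, arrays labelled cKO minus control, with the standard error of the model as bars (y axis), for Omp, Ssu2 and Tm4sf4 (diamonds) and the protein-coding genes around each in chromosome order (x axis, not to scale). Red circles passed at an adjusted p under 0.05, black circles did not, and grey crosses at 0 mark genes that were not tested; Oxtr at -1.76 and Srgap3 at 0.72 are the neighbours that passed.

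Relatives of Tm4sf4 gave no measurement. Of the 4 other family genes, Tm4sf1, Tm4sf5 and Tm4sf20 had a probe and each was detected on 0 of 6 arrays, while Tm4sf19 had none. Tm4sf4 was the only member of the list of 5 that these arrays measured.

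None of the tested genes that act with Omp in olfactory neurons passed as lower. Of 20 listed, 9 were bright enough to be tested and 0 passed (limma). There were 2 of 9 with an unadjusted p under 0.05, a share near the 23.7% of all tested genes, and with array weights 1 passed, the receptor-trafficking gene Reep1 (0.57, adjusted p = 0.0487). The differences lay between -0.46 and 0.51 with a median of -0.07. Gnb1, a G protein beta subunit gene used by many cell types, differed by -0.10 (SE 0.11), Ric8b, a chaperone of the olfactory G protein, by 0.09 (SE 0.12), and Reep1, without array weights, by 0.51 (SE 0.15, adjusted p = 0.0786). Pde1c, a phosphodiesterase gene named here for its values, differed by -0.46 (SE 0.14, adjusted p = 0.0839), and its dim probe was detected on 3 control arrays and 0 arrays labelled cKO. The other 11, among them the olfactory G protein gene Gnal, the channel genes Cnga2, Cnga4, Cngb1 and Ano2 and the receptor transporters Rtp1 and Rtp2, were detected on 0 arrays. The summed level of the 9 tested genes was 12.13 to 12.21 log2 units on the control arrays and 12.02 to 12.29 on the arrays labelled cKO. Gnb1, which averaged 11.76 and 11.65, weighs most in it. The mean level, which weights each gene alike and is taken against the control mean, was -0.03 to 0.03 on the controls. On the arrays labelled cKO it was -0.03 to 0.06.

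Markers of other tissues in which Tm4sf4 is known were mostly at background. Of 12 hepatocyte markers, 7 were detected on 0 arrays, among them the albumin gene Alb and Apoa1, Apob and Ttr. Of 3 tested, 2 rose, where 4.34% of all tested genes rose, Cyp2e1 (2.25, adjusted p = 0.00602) and the transferrin gene Trf (0.90, adjusted p = 0.0342), genes that other tissues also express. The summed level of these 3 was 11.62 to 11.87 log2 units on the control arrays and 13.00 to 14.09 on the others. Trf did not pass without control replicate 1, 2 or 3 (0.0601, 0.109 and 0.0820) or without cKO replicate 2 or 3 (0.0521 and 0.105). Of 10 enterocyte markers, 8 were detected on 0 arrays and 0 of 2 tested passed, at an adjusted or an unadjusted p under 0.05, the brightest being Lgals4 (0.63, SE 0.32). Of 10 pancreatic islet markers, 8 were detected on 0 arrays, including Ins2, Gcg and Pdx1, and 0 were bright enough to be tested. Of 8 kidney tubule markers, 4 were detected on 0 arrays and 0 of 2 tested passed, at either threshold, the brightest being Slc12a3 (-0.22, SE 0.11).

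Most markers of the adrenal's own cells were bright enough to be tested, while the steroidogenic genes Nr0b1 and Fdx1 and the zona glomerulosa gene Hsd3b6 were detected on 0 arrays. Of 12 steroidogenic markers, 10 were tested and 1, the corticotropin receptor gene Mc2r, rose (0.54, adjusted p = 0.0146), although not under median scaling (0.40, adjusted p = 0.0613). This 1 of 10 is near the 4.34% of all tested genes that rose. The summed level of the list was 16.35 to 16.60 log2 units on the control arrays and 16.41 to 16.53 on the arrays labelled cKO. Of the 2 X-zone markers both fell, where 2.64% of all tested genes fell, Pik3c2g (adjusted p = 0.00319) and Akr1c18 (adjusted p = 0.0235), and their summed level went from between 14.36 and 14.75 to between 8.27 and 12.45. Akr1c18 did not pass with a robust variance (0.138), without control replicate 1, 2 or 3 (0.0598, 0.0774 and 0.0556) or without cKO replicate 3 (0.0934). Of 6 tested markers of the aldosterone-producing zona glomerulosa, the angiotensin receptor gene Agtr1b (-1.68, adjusted p = 0.0116) and the calcium sensor gene Vsnl1 (-1.10, adjusted p = 0.00168) fell and the signalling ligand gene Shh rose (0.58, adjusted p = 0.0298), where 2.64% of all genes fell and 4.34% rose. The summed level of the 6 was 13.70 to 13.88 on the control arrays and 13.86 to 13.97 on the others, with Agtr1a and Dab2 weighing most. The mean level of the 6 was -0.13 to 0.09 on the controls. It was -0.73, -0.43 and -0.32 on cKO replicates 1, 2 and 3. Of the 6 differences 3 lay below 0, near the share over all tested genes (6976 of 13327). Among these 3 was Cyp11b2 (-0.95, SE 0.35, limma adjusted p = 0.152). An unadjusted p under 0.05 (limma) was found for 4 of the 6, where 23.7% of all tested genes had one. Shh did not pass under median scaling (0.0597), with a replicate block (0.0608), or without control replicate 2 or 3 (0.0777 and 0.0637) or cKO replicate 2 or 3 (0.0992 and 0.105).

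Markers of other cell types moved in different directions from one another. Of 8 tested macrophage markers, 2 fell, against 2.64% of all tested genes. They were the lysosomal genes Cd68 (-1.13, adjusted p = 0.00565) and Gpnmb (-2.99, adjusted p = 0.0147). The summed level was 12.58 to 12.64 on control arrays and 12.16 to 12.90 on the others, with C1qb weighing most. The mean level was -0.09 to 0.06 on the controls and -0.14, -0.72 and -0.58 on cKO replicates 1, 2 and 3. Of the 8 differences 5 lay below 0, near the share over all tested genes (6976 of 13327). Gpnmb did not pass with a robust variance (0.0743) or without cKO replicate 3 (0.0609). Of 8 tested chromaffin cell markers, 2 rose, against 4.34% of all tested genes. They were Pnmt, which makes adrenaline (0.97, adjusted p = 0.0221), and the secretogranin gene Scg2 (0.59, adjusted p = 0.0192). All 8 differences lay above 0, between 0.22 and 0.97, where 6976 of all 13327 tested genes lay below 0. An unadjusted p under 0.05 (limma) was found for 6 of the 8, where 23.7% of all tested genes had one. The summed level of the 8 went from between 15.66 and 16.05 to between 16.30 and 16.63. Pnmt did not pass without cKO replicate 2 or 3 (0.0665 and 0.0915). Scg2 did not pass under median scaling (0.0952), without control replicate 2 or 3 (0.0762 and 0.0527) or without cKO replicate 2 or 3 (0.0590 and 0.0789).

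Of 7 tested fat cell markers, 3 rose, against 4.34% of all tested genes. They were the adiponectin gene Adipoq (1.38, adjusted p = 0.00521), Cidec (1.49, adjusted p = 0.0239) and the lipase gene Lpl (1.34, adjusted p = 0.0369). The summed level of the 7 was 13.44 to 13.69 on the control arrays and 14.18 to 15.58 on the arrays labelled cKO. The mean level overlapped, at -0.21 to 0.20 on the controls and 0.98, 1.78 and 0.10 on cKO replicates 1, 2 and 3. Ucp1 (-0.25, SE 0.95) was the 1 gene below 0, where 6976 of all 13327 tested genes lay below 0. Ucp1 read 7.66 and Cidea 10.15 on cKO replicate 3, under all their controls, against 12.35 and 13.21 on replicate 2. An unadjusted p under 0.05 (limma) was found for 5 of the 7, where 23.7% of all tested genes had one. Cidec did not pass with a robust variance (0.0743) or without control replicate 1 or 2 (0.0658 and 0.0750). Lpl did not pass with a robust variance (0.139), without control replicate 1, 2 or 3 (0.0987, 0.0826 and 0.0738) or without cKO replicate 3 (0.0832). Of 6 tested endothelial markers 0 passed (limma), 2 had an unadjusted p under 0.05, where 23.7% of all tested genes did, and the brightest, Emcn, differed by 0.10 (SE 0.14). The summed level of the 6 was 13.43 to 13.61 on the control arrays and 13.27 to 13.63 on the others. The part of these cell types in the falls of Omp, Ssu2 and Tm4sf4 was not tested.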

How the data were processed

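Total RNA was extracted with a Qiagen RNeasy kit and labelled with an Ambion MessageAmp kit for Illumina bead arrays, per the labels' protocols. Each deposited probe intensity is linear and, per the file headers, not yet normalized, and has a deposited detection p-value beside it. On each array 30.7% to 33.4% of values were negative, which shows that background was subtracted. Neither the labels nor the headers name the scanner software. The deposited series matrix holds intensity values whose ranks equal those of the signals and whose 6 columns share nearly the same distribution. The authors' method for it is not stated.

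Signals were corrected with normexp in limma 3.58.1 (R 4.3.3), the background being inferred from the detection p-values, with an offset of 16, then quantile normalized on the log2 scale. The offset pulls dim values toward each other. The test took the 19210 probes detected (detection p-value under 0.05) on 3 or more of the 6 arrays. Symbols were updated through RefSeq (GRCm38.p6), in which 27740 probes carried a current symbol and 8037 an older one, and 9504 had no match. A gene is its brightest tested probe. The comparison of cKO with control used lmFit and eBayes of limma with an intensity trend, two-sided, with Benjamini-Hochberg adjustment over all tested probes. The procedure was tested on simulated data.

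The summed level of a list is the log2 of the summed normalized linear values of its tested probes, so its brightest genes weigh most. The mean level of a list is the mean over its tested probes of log2 value minus control mean. Omp, Ssu2, Tm4sf4 and the lists (Tm4sf family, olfactory transduction, X-zone, steroidogenic cortex, zona glomerulosa, chromaffin, hepatocyte, enterocyte, pancreatic islet, kidney tubule, fat cell, macrophage and endothelium) were chosen with earlier results of these data known. Named genes followed a rule: the 5 nearest profiles of each gene, adjoining, overlapping or changed neighbours, family members, changed olfactory genes and the 3 brightest others, and up to 3 changed genes per marker list or else its brightest. Pik3c2g, Akr1c18, Spp1, Xrra1 and Timp4 as neighbours in rank, and genes listed as undetected, were chosen for mention with their values in view. So were Cyp11b2, Agtr1a, Dab2, Ucp1, Cidea and C1qb. Samples were grouped by their titles. Precision is limited by having 3 arrays a group.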

Additional observations from a re-analysis of the deposited data

How the results depend on the processing

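The differences of Omp, Ssu2 and Tm4sf4 kept their direction under every alternative that gave a value. The choice of the genes for steep falls on these same arrays made this all but certain, so it is a description only. With an offset of 50 the differences of Omp, Ssu2 and Tm4sf4 shrank to -3.51, -3.53 and -1.77. Leaving out 1 array at a time gave -4.30 to -3.89 for Omp, -4.66 to -4.14 for Ssu2 and -2.23 to -2.10 for Tm4sf4. Omp and Ssu2 gave no value where a detection p-value under 0.01 was required on all 6 arrays. With that filter 1 neighbour passed, since Oxtr was not tested. Leaving out 1 array gave 1 to 2 neighbours and 398 to 960 genes in all, and with array weights 1 olfactory gene passed. No Tm4sf family gene other than Tm4sf4 could be tested except without a filter, where 0 passed. The labels do not say whether replicate numbers pair the samples. Deviations of same-numbered arrays correlated at 0.04, 0.04 and -0.01, and those of the other pairs at -0.11 to 0.07. With 3 arrays a group these values cannot settle whether the samples were paired. With a replicate block 721 genes passed in place of 930, and the same number of neighbours, 2. Over 84 further genes and their alternatives, 35 calls were lost, 19 gained and 0 reversed. The Ssu2 probe was not detected on cKO replicate 2, so signal over background limits the size of its fall.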
